A study of Homo sapiens with 4 samples.

Results

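SR proteins and hnRNPs, the 2 large families of RNA-binding proteins that steer pre-mRNA splicing, were examined in SAS cells with C6orf141 overexpression. The genes were taken by name from the array annotation. They were every row annotated to a single gene of the SRSF or HNRNP series that was not a pseudogene, together with TRA2A, TRA2B and the PTBP, ESRP, RBFOX2 and MBNL genes, with the brightest row standing for each gene. This gave 43 genes of the 33458 genes measured. SAS is a human tongue squamous carcinoma cell line. The arrays were 2 of C6orf141 overexpression and 2 of scrambled control, and the labels' protocol, given alike for all 4, describes stable cells that carry full-length C6orf141 in the pLVX-IRES-Neo vector after G418 selection. The sources used here do not say whether that line is 1 clone, what vector or selection the control cells received, or whether arrays with the same label were run from separate cultures. The p-values thus cover the array-to-array spread alone, and part or all of it may be technical. In a bulk RNA sample, fewer cells of a type and less RNA per cell cannot be told apart.

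In the nucleus, SR proteins bind exon sequences through RNA recognition motifs and recruit the spliceosome through domains rich in arginine and serine. The hnRNPs coat nascent RNA and often oppose exon inclusion, and the balance of both families shapes alternative splicing. ESRP proteins drive the epithelial splicing pattern, whereas PTBP, RBFOX and MBNL proteins guide exon choice in many cell types. The arrays gave 1 gene-level log2 signal for each transcript cluster, so the exon choice itself was not read.

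None of the splicing factor genes passed the test between overexpression and control cells. The median log2 difference of the 43 genes, overexpression minus control, was -0.04, beside -0.00036 for all genes and -0.004 for all genes above the level of silent genes. That level, a log2 signal of 5.82, was set from 375 olfactory receptor genes, 95% of which had a lower mean. At an unadjusted p below 0.05 in limma 0 of the 43 genes were called, where the background over all genes was 2.11% (1.04% higher and 1.07% lower) and over genes above the level of silent genes 0.901% (0.416% higher and 0.485% lower). A count of 0 is therefore near the background. The same model with trend and robust settings called 1 of them, HNRNPK, and 2.05% of all genes. What is called here the methods' t-test, a test that the methods name for other data and not for the arrays, called 1, MBNL2, and 4.08% of all genes. Both counts are near or below those shares. After Benjamini-Hochberg adjustment over all genes, limma called 0 genes of any kind, and every splicing factor gene had an adjusted p of 1.00. The differences ranged from -0.55 to 0.17, with standard errors from 0.22 to 0.40. For 41 of the 43 genes the 95% interval of the difference lay within a 2-fold change in either direction, and for 16 it lay within a 1.5-fold change. Among the 41 genes above the level of silent genes these counts were 39 and 16. The 2 genes whose interval reached past 2-fold were HNRNPK and HNRNPA0. These intervals are not limits of detection. At the adjusted threshold even C6orf141 itself, with an 11.0-fold difference, was not called (limma, adjusted p = 0.214). The lack of a call at that threshold therefore does not show that a gene was unchanged.

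**Figure D1:**
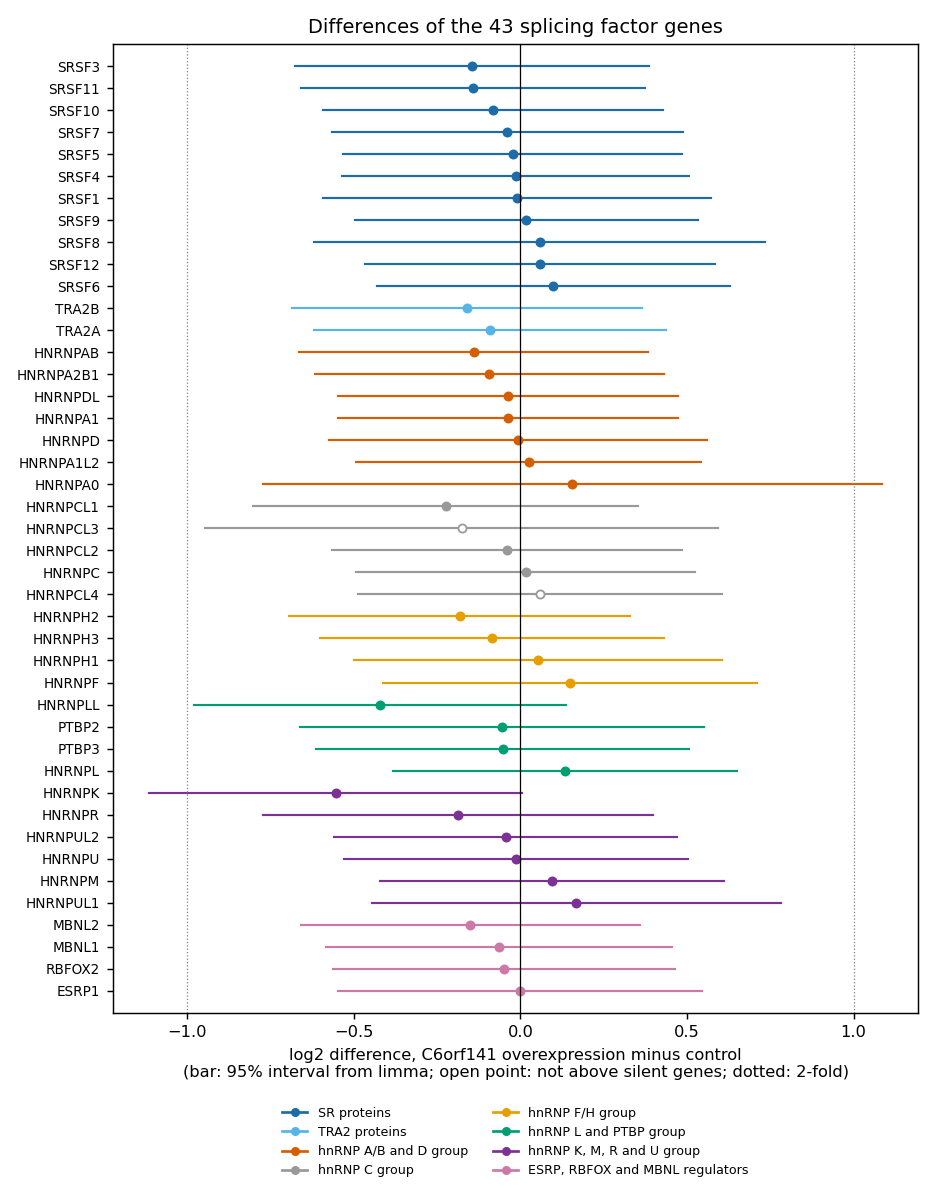
Log2 difference in signal, C6orf141 overexpression minus control, for the 43 splicing factor genes (vertical axis, ordered by role). Points are differences of group means, bars are 95% intervals from limma, open points are genes not above the level of silent genes, and dotted lines mark 2-fold; 41 of the intervals lie inside those lines.

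The labels and the state of the arrays were checked first. C6orf141 had log2 signals of 11.36 and 12.04 on the overexpression arrays, against 8.57 and 7.92 on the control arrays, an 11.0-fold difference (limma, adjusted p = 0.214). Of 11 listed markers of squamous and oral epithelium 8 were measured, and all 8 were above the level of silent genes. Of the other measured markers 0 of 4 endothelial, 2 of 5 leukocyte, 2 of 5 fibroblast and 1 of 5 neuronal ones were so. The leukocyte markers above that level were CD68 and CD3E, with means of 10.65 and 5.87, and PTPRC, CD14 and LYZ were not above it. KRT14, COL1A2, CD3E and MAP2 were above it but under 7.72, the brightest 95th percentile of the arrays' negative control rows. Control array 2 stood apart. Of the 16098 genes above the level of silent genes, 43 differed by over 2-fold between the overexpression arrays and 433 between the control arrays. Control array 2 differed so from overexpression arrays 1 and 2 in 113 and 309 genes, and control array 1 in 74 and 43. Of the splicing factor genes 1 did so, HNRNPA0, between the control arrays.

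Of the 43 genes, 41 were above the level of silent genes. HNRNPCL3 and HNRNPCL4 were not. Means of HNRNPK, SRSF12 and HNRNPCL2 were above that level but not above the brightest 95th percentile of the arrays' negative control rows, 7.72. Some well-known members could not be taken. SRSF2, HNRNPA3, PTBP1 and ESRP2 share their row with a microRNA gene, and HNRNPA1L3 is not analysed here. HNRNPK is represented by a dim row with no gene number, since its other row is shared with a microRNA gene too. Each row has its own probes, so signals are compared between arrays and not between genes.

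The start regions of 3 genes are shown, each for the feature of its array values named below. HNRNPA0 had the widest gap between the control arrays, with array 2 low. HNRNPR had the widest gap with control array 2 high among genes above the level of silent genes, and HNRNPLL had the largest difference between the groups among rows above the range of the negative controls. The 250 bases before the annotated start are from RefSeq (GRCh38.p14, 5′ to 3′ along the gene, all on the minus strand), at chr5:137754364-137754613 for HNRNPA0, chr2:38602929-38603178 for HNRNPLL and chr1:23344285-23344534 for HNRNPR. Capitals mark matches, on either strand, to the TATA box TATAAA, the CCAAT box CCAAT, the GC box GGGCGG and the ETS core CGGAAG.
HNRNPA0: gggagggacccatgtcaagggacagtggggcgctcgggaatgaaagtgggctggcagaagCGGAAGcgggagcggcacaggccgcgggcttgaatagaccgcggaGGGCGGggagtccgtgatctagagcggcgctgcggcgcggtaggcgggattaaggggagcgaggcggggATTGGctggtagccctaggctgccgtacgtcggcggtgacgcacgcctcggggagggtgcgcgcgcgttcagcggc
HNRNPLL: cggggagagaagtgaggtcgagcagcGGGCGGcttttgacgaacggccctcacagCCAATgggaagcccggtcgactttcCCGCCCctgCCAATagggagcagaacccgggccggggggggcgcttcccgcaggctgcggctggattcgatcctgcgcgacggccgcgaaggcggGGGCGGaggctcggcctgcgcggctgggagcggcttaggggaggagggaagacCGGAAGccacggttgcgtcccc
HNRNPR: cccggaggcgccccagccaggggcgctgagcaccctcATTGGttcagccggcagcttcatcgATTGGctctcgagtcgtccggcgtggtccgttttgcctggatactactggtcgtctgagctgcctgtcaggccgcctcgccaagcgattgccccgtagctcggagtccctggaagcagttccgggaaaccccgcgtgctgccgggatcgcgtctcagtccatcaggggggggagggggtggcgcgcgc
HNRNPA0 held 1 CCAAT box, 1 GC box and 1 ETS core, HNRNPLL held 2, 3 and 1 of these, and HNRNPR held 2 CCAAT boxes and neither of the others. None of the 3 windows had a TATA box in these letters. RefSeq windows were found for 38 of the 43 genes, 55 windows in all, as some genes have several starts. Of these windows 10.9% held the TATA box, 41.8% the CCAAT box, 54.5% the GC box and 30.9% the ETS core, beside 10.7%, 32.0%, 42.6% and 16.5% of all 35116 windows of the same length. The median GC content was 64.0% in the windows of the splicing factor genes and 58.0% in all windows. These are descriptions of letters, and binding was not measured.

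The SR proteins, which mostly favour exon inclusion, differed little between the groups. All 11 measured SRSF genes lay between -0.15 and 0.10 in log2 difference, with a median of -0.01, and 7 were lower and 4 higher in overexpression cells by their means. SRSF1, the founding member and a known oncoprotein, had log2 signals of 16.00 and 16.25 on the overexpression arrays, against 16.34 and 15.93 on the control arrays. The overexpression values lay between the control values, and the difference was -0.01 (standard error 0.25). SRSF3, a small SR protein that also takes part in mRNA export, had 14.69 and 14.76 on the overexpression arrays, against 14.74 and 15.00 on the control arrays, a difference of -0.15 with a 95% interval from -0.68 to 0.39. The groups overlapped, and control array 2 alone was high.

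SRSF6, an SR protein with a known role in skin wound healing and tumours, had the largest positive difference of the SR genes, with 13.75 and 13.96 on the overexpression arrays, against 13.83 and 13.68 on the control arrays. The difference of 0.10 (standard error 0.23) was smaller than the gap between the overexpression arrays. SRSF8, a retrotransposed relative of SRSF2, had the widest gap between the overexpression arrays of all splicing factor genes. It read 7.71 and 8.47 on the overexpression arrays, against 7.996 and 8.07 on the control arrays, so both control values lay between the overexpression values. The difference was 0.06 (standard error 0.29).

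SRSF4, SRSF5, SRSF7 and SRSF9 had differences from -0.04 to 0.02, and their groups overlapped. SRSF10, which acts as a repressor when dephosphorylated, and SRSF11 had differences of -0.08 and -0.14, with both overexpression arrays below both control arrays. SRSF12, a relative of SRSF10 whose row lay within the range of the negative control rows, had 0.06. TRA2A and TRA2B, SR-related proteins that bind GA-rich exon enhancers, had differences of -0.09 and -0.16. TRA2B read 14.92 and 15.03 on the overexpression arrays, against 15.04 and 15.23 on the control arrays. Its groups did not overlap, but overexpression array 2 and control array 1 were almost equal.

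**Figure D2:**
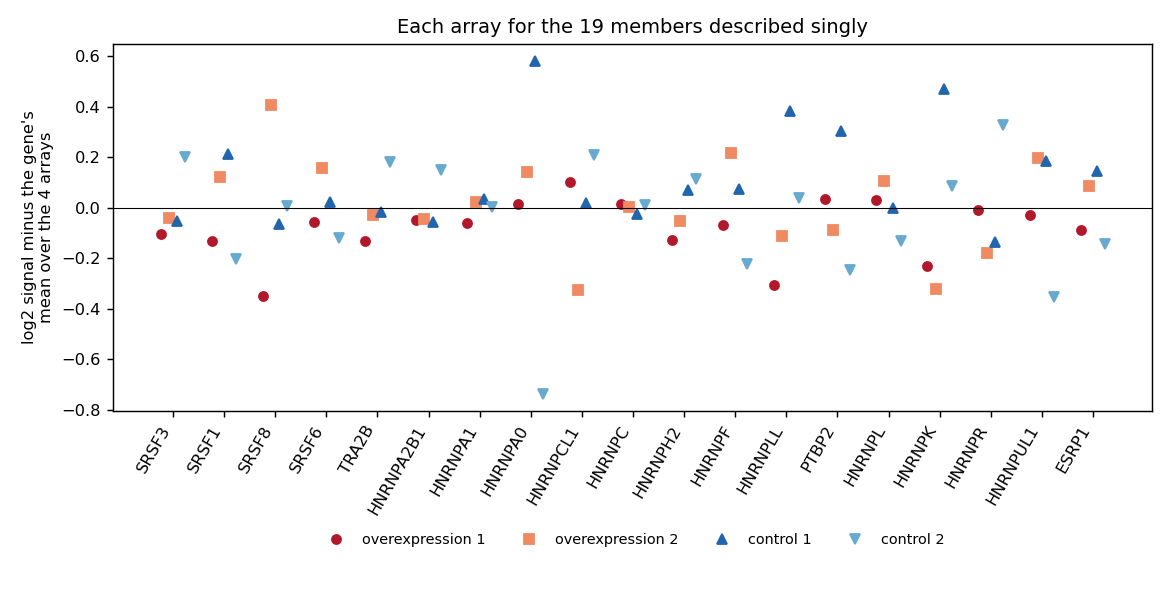
Log2 signal of each array minus the gene's mean over the 4 arrays, for the 19 members described singly (horizontal axis). Circles and squares are overexpression arrays 1 and 2, upward and downward triangles control arrays 1 and 2; the widest spread is that of HNRNPA0, with control values of 13.51 and 12.19 around the overexpression values.

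The hnRNP A/B and D proteins, abundant RNA-coating proteins of which several repress exons, had a median log2 difference of -0.04 over 7 genes. HNRNPA1, a repressor that competes with SRSF1 for splice site choice, had signals of 17.38 and 17.46 on the overexpression arrays, against 17.48 and 17.44 on the control arrays. HNRNPA2B1, which also sorts RNA into exosomes, had 16.37 and 16.38 on the overexpression arrays, against 16.36 and 16.57 on the control arrays. Both genes had overlapping groups and differences of -0.04 and -0.09, with standard errors of 0.22 and 0.23. Rows of HNRNPA1 pseudogenes numbered 70, of which 50 were above the level of silent genes, and transcripts of near-identical copies may share probes, so the HNRNPA1 value is uncertain in that respect.

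HNRNPA0, a single-exon member that binds AU-rich elements, had the largest standard error of all. It had 12.94 and 13.07 on the overexpression arrays, against 13.51 and 12.19 on the control arrays. The overexpression arrays agreed within 0.13, and the control values lay on both sides of them. The means were 13.01 ± 0.09 in overexpression cells and 12.85 ± 0.93 in control cells (SD, n = 2 each). Its difference was 0.16 with a standard error of 0.40 and a 95% interval from -0.77 to 1.08. Without control replicate 1 it was 0.82 and passed an unadjusted p below 0.05 in limma, as did 4.76% of all genes in that setting, whereas without control replicate 2 it was -0.50. HNRNPAB, HNRNPD, HNRNPDL and the retrotransposed HNRNPA1L2 had differences from -0.14 to 0.03, and among these only HNRNPAB had groups that did not overlap, with less than 0.01 between them.

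HNRNPC, which measures the length of nascent RNA and shields cryptic exons, was the steadiest of the well-known members. Its log2 signals were 16.84 and 16.82 on the overexpression arrays, against 16.80 and 16.83 on the control arrays, a difference of 0.02 with a 95% interval from -0.49 to 0.52. The interval is wider than the spread of these 4 values, since limma draws each row's variance towards a value estimated from all rows. HNRNPCL1, an HNRNPC-like gene, had 9.07 and 8.64 on the overexpression arrays, against 8.98 and 9.17 on the control arrays. The difference was -0.22 (standard error 0.25), and with 1 array left out it ranged from -0.44 to -0.01. The 2 dimmer rows of the gene gave 0.0055 and, under the level of silent genes, -0.33. HNRNPCL2 lay barely above the level of silent genes and HNRNPCL3 and HNRNPCL4 under it. HNRNPCL3 had a control gap of 0.98, and without control replicate 1 its difference was -0.67.

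In the hnRNP F/H group, whose proteins bind runs of guanine, the differences ranged from -0.18 to 0.15. HNRNPH2, which is encoded on the X chromosome, had 12.86 and 12.94 on the overexpression arrays, against 13.06 and 13.10 on the control arrays. The groups did not overlap, and the difference of -0.18 had an adjusted p of 1.00 in limma. HNRNPF had 15.33 and 15.61 on the overexpression arrays, against 15.47 and 15.18 on the control arrays, a difference of 0.15. The groups overlapped, and with the mean of its rows the difference was -0.07. HNRNPH1 and HNRNPH3 had differences of 0.05 and -0.08.

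HNRNPL and the related polypyrimidine tract-binding proteins bind CA-rich or pyrimidine-rich RNA. HNRNPLL, known as a regulator of CD45 exons in lymphocytes, had the largest difference among rows above the range of the negative controls. It read 10.64 and 10.83 on the overexpression arrays, against 11.33 and 10.99 on the control arrays. The groups did not overlap, the gap between the control arrays was 0.34, and the difference was -0.42 (standard error 0.24, 95% interval from -0.98 to 0.14, adjusted p = 1.00 in limma). With 1 array left out it ranged from -0.59 to -0.25. HNRNPL itself had 13.29 and 13.36 on the overexpression arrays, against 13.26 and 13.13 on the control arrays, a difference of 0.13 with groups that did not overlap. PTBP2, the neuronal form that PTBP1 represses in other cells, had 10.49 and 10.36 on the overexpression arrays, against 10.76 and 10.21 on the control arrays. The overexpression values lay between the control values, as they did for PTBP3, and the differences were -0.06 and -0.05.

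HNRNPK, a KH-domain protein that binds C-rich nucleic acids, had the largest difference of the 43 genes, on a row that lay within the range of the negative controls. Its log2 signals were 6.95 and 6.86 on the overexpression arrays, against 7.65 and 7.27 on the control arrays. The groups did not overlap, and the difference was -0.55 (standard error 0.24, 95% interval from -1.11 to 0.00, adjusted p = 1.00 in limma). It narrowly missed the unadjusted threshold. It passed that threshold with trend and robust settings and without control replicate 2, where it was -0.75, and 3.07% of all genes passed in that last setting. HNRNPR, an mRNA-binding relative of SYNCRIP, had 15.20 and 15.03 on the overexpression arrays, against 15.07 and 15.54 on the control arrays. Its difference was -0.19 (standard error 0.25), and control array 2 alone was high. HNRNPUL1, which takes part in the DNA damage response, had 14.73 and 14.95 on the overexpression arrays, against 14.94 and 14.40 on the control arrays, a difference of 0.17 (standard error 0.26) with control array 2 alone low. HNRNPM, HNRNPU and HNRNPUL2 had differences of 0.09, -0.01 and -0.04. HNRNPM, which counteracts ESRP1 on shared exons, had groups separated by less than 0.01.

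The regulators tied to cell type were measured for 4 genes. ESRP1, the epithelial splicing regulator, was well above the level of silent genes, with 16.49 and 16.67 on the overexpression arrays, against 16.73 and 16.44 on the control arrays. Both overexpression values lay between the control values, and the group means were 16.58 ± 0.12 in overexpression cells and 16.58 ± 0.20 in control cells (SD, n = 2 each). The 95% interval of its difference ran from -0.55 to 0.54. RBFOX2, MBNL1 and MBNL2, which promote splicing patterns of mesenchymal or differentiated cells, had differences of -0.05, -0.07 and -0.15. MBNL2, singled out after its values were seen, had 13.21 and 13.23 on the overexpression arrays, against 13.40 and 13.35 on the control arrays. Its groups did not overlap, and it was the single splicing factor gene with an unadjusted p below 0.05 in the methods' t-test, which called 4.08% of all genes and 3.83% of those above the level of silent genes.

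Groups did not overlap for 10 of the 43 genes, beside 29.4% of all genes and 27.7% of those above the level of silent genes. They did not overlap for 2 genes with higher signal in overexpression cells, HNRNPL and HNRNPM, where the background was 14.3% of all genes and 12.6% of those above the level of silent genes. They did not overlap for 8 genes with lower signal, HNRNPK, HNRNPLL, HNRNPH2, TRA2B, MBNL2, SRSF11, HNRNPAB and SRSF10, where the background was 15.1% and 15.0%. By the mean, 30 of the 43 genes were lower and 13 higher in overexpression cells, beside 50.8% lower among all genes above the level of silent genes. With 1 array left out, 27 of the 43 differences turned sign. Differences next to 0 turned sign with another scaling, SRSF1 to 0.0059 with quantile normalization and ESRP1 to 0.0066 with median centring, while the median of the 43 genes was -0.0311 and -0.0316 in these settings. Only 3 of the 43 differences were larger than 0.2 in size, 6.98%, beside 31.1% of all genes above that level. The differences of the splicing factor genes were thus small in both directions, with a median size of 0.07 beside 0.13 over all genes above that level. The comparison was not matched for signal. On overexpression array 1 the median signal was 14.34 for the 43 genes and 9.37 for all genes above that level. In the related splicing lists described below, the median size was 0.09. Whether the size goes with the signal was not tested. The shares and sizes in this paragraph are descriptions, since genes measured on the same arrays are not independent.

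Between the overexpression arrays the median gap of the 43 genes was 0.11, and between the control arrays it was 0.16. For all genes above the level of silent genes, which were not matched for signal, these gaps were 0.16 and 0.27. Control array 2 was the highest or the lowest of the 4 arrays for 32 of the 43 genes, 74.4%, beside 64.6% of all genes above that level. It was lowest for 14, among them HNRNPA0, PTBP2, HNRNPUL1, SRSF1, HNRNPF, PTBP3 and HNRNPH1, and highest for 18, among them HNRNPR, SRSF3, TRA2A, TRA2B, HNRNPA2B1 and HNRNPD. Without it, the median of the 43 genes was -0.03.

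**Figure D3:**
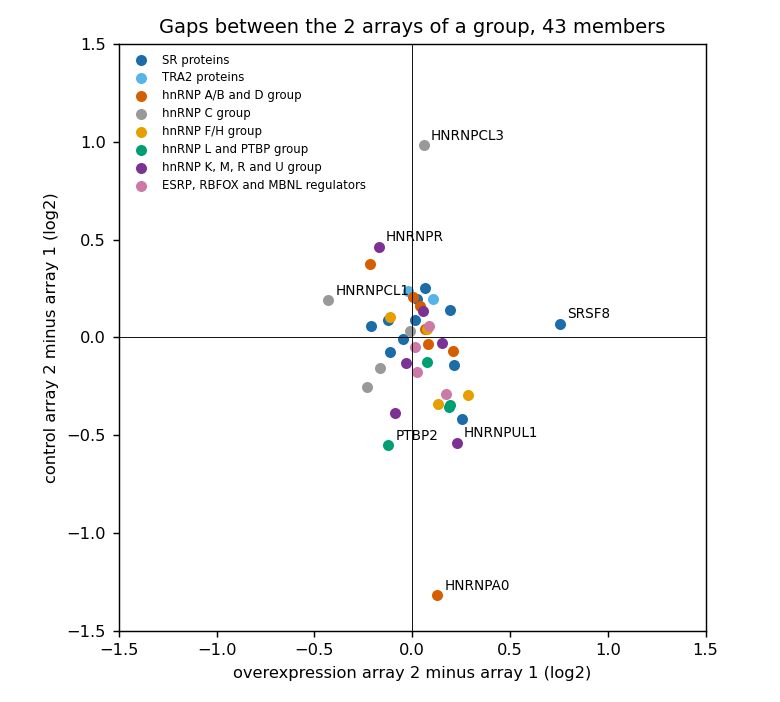
Log2 gap between the 2 overexpression arrays (horizontal axis, array 2 minus array 1) and between the 2 control arrays (vertical axis, array 2 minus array 1), 1 point for each of the 43 genes, coloured by role. HNRNPA0 lies lowest with a control gap of -1.32, and SRSF8 farthest right with an overexpression gap of 0.76.

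The other parts of the splicing machinery were read from 7 lists of 135 genes in all, of which 120 were measured. None of these 120 genes was called at an unadjusted p below 0.05 in limma in either direction, and their median difference was -0.02. The background was 2.11% of all genes and 0.901% of those above the level of silent genes. Of the 120 genes 113 were above that level, so a count of 0 is near the background. Among the kinases that phosphorylate SR proteins and the importins that carry them, 12 genes had a median of -0.07. CLK4, a nuclear kinase of SR proteins, had 11.42 and 11.56 on the overexpression arrays, against 12.00 and 11.69 on the control arrays, a difference of -0.36 (standard error 0.24), and DYRK1B was under the level of silent genes.

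The core of the spliceosome also showed no called gene. For 13 genes of the U1 and Sm core proteins the median was -0.04, with -0.35 for PRPF39, a U1-associated factor, and -0.17 for the Sm protein SNRPD1. For 20 genes of U2 and branch point recognition it was -0.01, with 0.39 for SF3A2 and 0.40 for PUF60, which helps U2AF bind the pyrimidine tract. Without control replicate 1 SF3A2 had 0.76, and without control replicate 2 it had 0.02. For 24 tri-snRNP genes the median was 0.07, with 0.28 for the GTPase EFTUD2 and 0.26 for PRPF31. EFTUD2 had 13.84 and 14.00 on the overexpression arrays, against 13.65 and 13.63 on the control arrays, and these groups did not overlap.

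For 8 genes of the exon junction complex, which marks spliced mRNA, the median was -0.05. MAGOH, a core subunit, had the largest difference in these lists, with 11.30 and 11.31 on the overexpression arrays, against 11.48 and 12.33 on the control arrays. The difference was -0.60 (standard error 0.31), without control replicate 1 it was -1.02, and without control replicate 2 it was -0.17. ACIN1, an auxiliary subunit, had 0.25, but 0.05 with the mean of its rows. For 7 factors of nonsense-mediated decay, the pathway that degrades SR transcripts with poison exons, the median was 0.11, with 0.38 for SMG5 and 0.20 for UPF1. For 36 other RNA-binding regulators it was -0.05, with -0.33 for FUBP1, and NOVA1, a neuronal regulator, was below the level of silent genes.

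**Figure D4:**
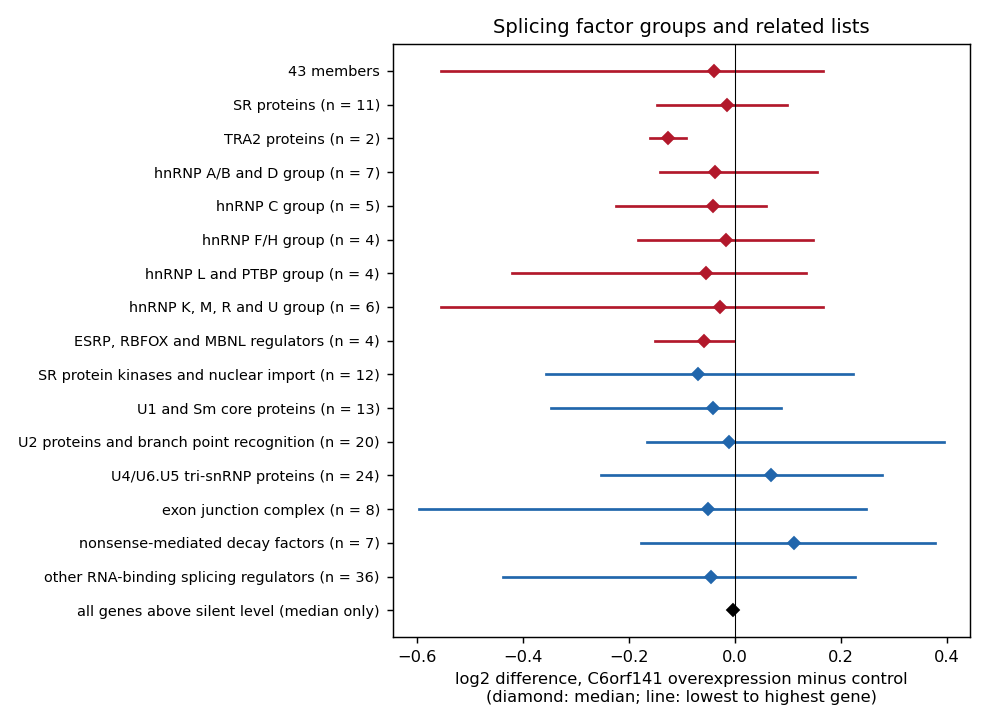
Median log2 difference, C6orf141 overexpression minus control (diamonds), and the lowest to highest gene (lines) for the 43 splicing factor genes, their role groups (red) and 7 related lists (blue), with the median of all genes above the level of silent genes in black. All medians of these lists lie between -0.13 and 0.11.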

How the data were processed

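RNA of SAS cells was measured on 4 Clariom D arrays. Per the methods and labels, RNA was amplified and labelled with WT PLUS chemistry, values were summarised to gene level, and Partek served for the comparison, with p below 0.05 as threshold. For every transcript cluster on every array the authors deposited a log2 value. The sources used here do not give the summarising algorithm, tool versions or genome build. Precision is limited by the small number of arrays.

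No further scaling was applied to the deposited log2 values. Of 138745 rows, 2995 array controls were left out. Platform annotation names 1 gene for 36176 rows, several for 1119 and none for 98455, and 623 older symbols were updated from RefSeq (GRCh38.p14). Limma 3.58.1 in R 4.3.3 (lmFit, eBayes, two-sided) was fitted over all 135750 remaining rows. Benjamini-Hochberg adjustment was made over 33458 genes, each represented by its brightest row, and the threshold was 0.05. The methods name no test for the arrays. The alternative labelled the methods' t-test is Student's test with equal variances, which they name for tissue and clinical comparisons only. Steps were tested on simulated data. Members, lists and tests were chosen with earlier results of these data known. Singly described members were the 5 largest differences in each direction and the widest array gaps among genes above the level of silent genes, and the best known of each role. In the 7 related lists, the 2 genes with the smallest p were named. Alternatives were quantile normalization, median centring, the methods' t-test, trend and robust settings in limma, dim genes left out, the mean of a gene's rows, the replicate block and each array left out.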

Additional observations from a re-analysis of the deposited data

Results flagged for a closer look

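Of 130 rows of the same families that stand for no member (7 dimmer rows of members and 123 pseudogene rows), 1 had a higher signal in overexpression cells, with groups that did not overlap and limma's unadjusted p under 0.05, beside 1.04% of all genes called higher. In either direction 2 of the 130 rows passed, beside 2.11% of all genes, so neither count stands above the background. It is the pseudogene HNRNPRP2, with log2 signals of 5.56 and 5.74 on the overexpression arrays, against 4.25 and 5.23 on the control arrays, a difference of 0.91 (standard error 0.33). Its mean of 5.19 was below the level of silent genes.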

How the results depend on the processing

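With trend and robust settings, with the replicate block and with the crossed block, which was added after the data were seen, limma called 1 gene at an adjusted p below 0.05 in place of 0. In each setting that gene was C6orf141 itself (limma, adjusted p = 0.04, 0.0413 and 0.0074), and no splicing factor gene was called so. At the unadjusted threshold limma gave 348 higher and 358 lower genes, against 654 and 710 with the methods' t-test and 67 and 78 among genes above the level of silent genes only. With the replicate number as a block these were 299 and 326, and with the numbers crossed 373 and 380. The labels do not tie the numbers to shared cultures, and same-numbered arrays deviated apart (r = -0.112 across all genes). Splicing factor genes called lower numbered 1 with trend and robust settings (HNRNPK, beside 2.05% of all genes called) and 1 with the methods' t-test (MBNL2, beside 4.08%), against 0. Among the related genes named by rule, PRPF39 and ACIN1 passed the unadjusted threshold with the methods' t-test, as did 4.08% of all genes. The cause was not tested. The sign turned for SRSF1 with quantile normalization (0.0059), for ESRP1 with median centring (0.0066) and for HNRNPF with the mean of its rows (-0.0706), none of which passed a test. The block changed no call of a splicing factor gene.

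With 1 array left out, limma gave 209 to 925 higher and 244 to 668 lower genes, splicing factor genes called from 0 to 1 in each direction (HNRNPA0 higher and HNRNPCL3 lower without control replicate 1, HNRNPK lower without control replicate 2), and the median of the 43 genes from -0.07 to -0.03. Of all genes, 4.76% passed without control replicate 1 and 3.07% without control replicate 2, so the splicing factor calls do not stand above the background. HNRNPCL3 was under the level of silent genes. In each of the fits with 1 array left out, the single array left in a group was taken to have the spread of the remaining pair. In the related lists only the genes named by rule were followed through these settings. Among them, MAGOH had -1.02 and SF3A2 0.76 without control replicate 1. Without control replicate 2, DYRK1B had -0.75 and NOVA1 -0.69, both under the level of silent genes. Signs turned for 27 of the 43 genes. Among members and related genes named by rule, those that did so had the ranges SRSF1 -0.22 to 0.20, SRSF6 -0.0071 to 0.20, SRSF8 -0.32 to 0.44, HNRNPA0 -0.50 to 0.82, HNRNPA1 -0.0788 to 0.0043, HNRNPA2B1 -0.20 to 0.0107, HNRNPC -0.0024 to 0.0328, HNRNPR -0.42 to 0.0428, HNRNPUL1 -0.10 to 0.44, PTBP2 -0.33 to 0.22, ESRP1 -0.15 to 0.14, DYRK1B -0.75 to 0.0474, SNRPD1 -0.60 to 0.25, SMG5 -0.0036 to 0.76 and UPF1 -0.0569 to 0.45.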

Other observations

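Of the 123 pseudogene rows of these families, 84 were above the level of silent genes. Among the parents were HNRNPA1 with 50 such rows of 70, HNRNPA3 with 13 of 14, HNRNPC with 6 of 9 and HNRNPK with 4 of 5. The HNRNPA1 pseudogene HNRNPA1P51 had log2 signals of 9.34 and 8.73 on the overexpression arrays, against 9.95 and 9.61 on the control arrays, a difference of -0.74 (standard error 0.28) that passed the unadjusted threshold, where the HNRNPA1 row had -0.04. It was chosen after its values were seen.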
